A study of Rattus norvegicus with 145 samples.

Results

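Liver messenger RNA was compared between 5 rats given acetamide at 1000 mg/kg/day (mkd) by gavage and 5 rats given the water vehicle alone. All 10 were male Wistar rats (strain Crl:WI), aged 8 to 10 weeks when entered for dosing per the study's methods. The members were chosen by the headings of a raw count table, which name sex, dose and duration, and they make up 10 of the 145 samples of the series. Dosing lasted 28 days and livers were taken on day 29 from the left lobe, 24 h after the last dose, so the measurements describe the liver a day after dosing and not its response within hours. Acetamide is a small amide and food contaminant that has caused liver tumours in rats in long feeding studies at high doses. The question addressed was which liver genes differ after 4 weeks at a dose in the range of those studies. The control rats carry an exposure series number in their labels that differs from that of the treated rats. Their counts stand in the same count table as those of the treated rats, under titles of the same form. Their animal names begin with Rv like those of the treated rats, whereas the rats of the earlier experiment have names beginning with Ru. They were therefore taken as rats of the same experiment. If the label number is nonetheless a true one, the series and the treatment cannot be told apart.

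The liver is made mostly of hepatocytes, which secrete plasma proteins, make bile acids and dispose of foreign compounds, and holds smaller numbers of macrophages (Kupffer cells), stellate, endothelial, bile duct and lymphoid cells. Nuclear receptors that pair with the retinoid X receptor, and growth factor receptors at the cell surface, set much of the hepatocyte's metabolism and growth. Interferons, released when cells sense foreign or misplaced nucleic acid, switch on a shared set of antiviral genes. Normal adult hepatocytes rarely divide, and genes of the cell cycle are low in resting liver.

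The 10 libraries held 23499510 to 31756800 reads assigned to genes, and between 40.0% and 42.8% of the reads listed in the table fell on no gene, were ambiguous or aligned poorly, with overlapping ranges in both groups. All 14 hepatocyte markers fixed for the purpose (among them Alb, Ttr and Apoa1) lay above 100 CPM (reads of a gene scaled to library size) in every rat, which matched the labelled tissue. No pair of count columns was identical, and correlations of log2 CPM between rats ran from 0.954 to 0.984. Treated replicate 1 correlated better with the controls (median 0.973) than with the other treated rats (median 0.969), and it was the only treated rat of which this held.

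At 1000 mkd, 311 of 11279 genes tested (2.76%) passed both an adjusted p of at most 0.05 and an absolute fold change of at least 1.5 (differentially expressed genes, DEGs, by edgeR's quasi-likelihood test with Benjamini-Hochberg adjustment). Of these, 107 were up-regulated (0.949%) and 204 down-regulated (1.81%), and 112 changed at least 2-fold. All 5 treated rats lay above all 5 controls for 518 genes (4.59%) and below them for 497 (4.41%), while 78 of the up-regulated and 129 of the down-regulated DEGs showed such a separation. The most changed DEGs named by rule were picked only from DEGs with such a separation, so for them it was fixed by the choice. The log2 fold changes of the DEGs ran from 0.60 to 3.38 upward, with a median of 1.02, and from -0.82 at the median to -2.70 downward. An unadjusted p under 0.05 was reached by 1477 genes upward (13.1%) and 1482 downward (13.1%). The median adjusted p among DEGs was 0.0374.

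The number of DEGs depended on single rats. With each rat left out in turn the same test called between 1 and 860 genes. Without treated replicate 2 a single gene was left, Ifi27l2b, without treated replicate 3 there were 18, without treated replicate 5 there were 22, without control replicate 2 there were 14, without treated replicate 1 there were 860, without control replicate 4 there were 150, without control replicate 3 there were 163 and without treated replicate 4 there were 182. Of the 310 DEGs that could be refitted without treated replicate 2, all 310 kept their sign, their median absolute log2 fold change was 0.84 against 0.87 for all DEGs with every rat, and 231 had an adjusted p of at most 0.1. Ifi27l2b was the 1 gene called under every omission. A rat of another dose group also moved the count, since all 30 males share 1 estimate of the spread. Male replicate 3 at 1500 mkd, which the study left out of its Ki67 modelling, held Mki67, the proliferation antigen Ki67, at 243 CPM against 3.07 to 14.1 CPM in the other 4 rats of its group. With that rat left out of the fit, an alternative added after seeing the data, 778 genes were called at 1000 mkd, 295 up and 483 down, of which 305 were among the 311.

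**Figure D1:**
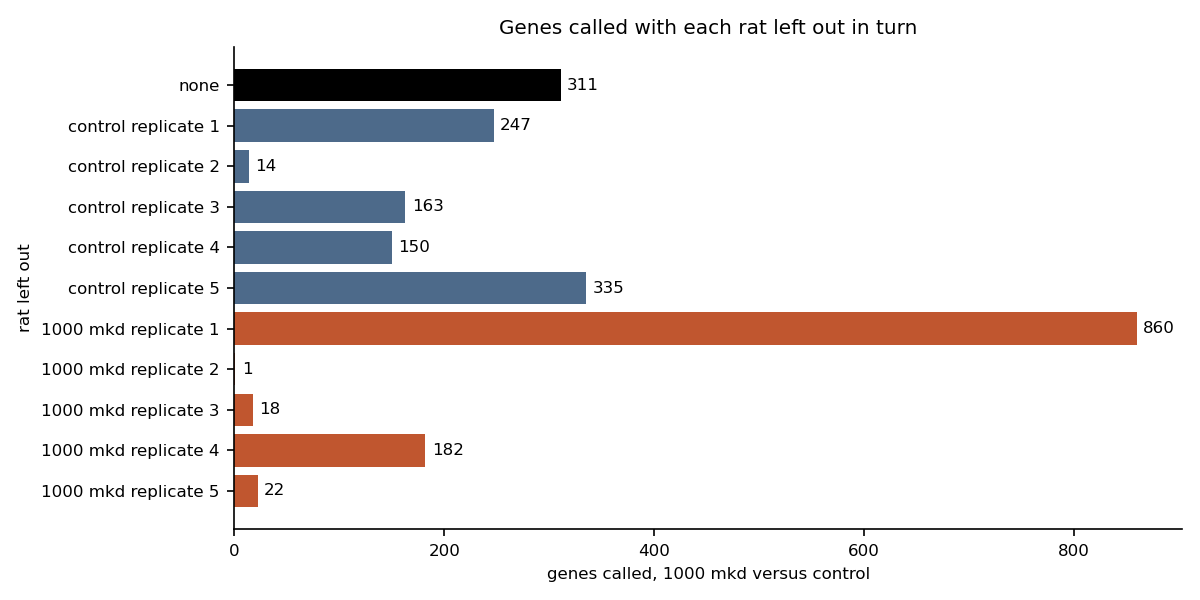
Genes called at 1000 mkd versus vehicle control (horizontal axis, number of genes) with no rat left out (black, 311 genes) and with each of the 5 control rats (blue) and 5 treated rats (orange) left out in turn. The count falls to 1 without treated replicate 2 and rises to 860 without treated replicate 1.

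Several interferon-induced genes were up-regulated. Ifi27l2b, a small membrane protein gene of the interferon-induced Ifi27 family, stood at 129, 159, 167, 185 and 229 CPM in control replicates 1 to 5 and at 373, 356, 804, 394 and 487 CPM in treated replicates 1 to 5. Every treated rat was above every control, with replicate 3 highest. The log2 fold change was 1.47 (SE 0.25) with an edgeR adjusted p of 0.0134, and none of 18 alternative settings changed the call. Its close relatives in the genome may share reads with it.

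Of 54 tested members of the interferon response list, 6 were up-regulated (0.949% of all genes were) and 1 down-regulated (1.81% of all genes), and the median log2 fold change was 0.40 against 0.05 over all genes tested. Mx1, a GTPase that blocks viral replication, was at 13.1, 18.4, 13.0, 6.90 and 17.3 CPM in controls and 37.4, 23.7, 52.1, 23.4 and 23.1 CPM in treated rats, without overlap. Its log2 fold change was 1.22 (SE 0.32) with an edgeR adjusted p of 0.0374. Isg20, an exonuclease that degrades RNA, stood at 2.26, 2.55, 1.75, 2.96 and 3.45 CPM in controls and 4.99, 6.55, 8.74, 3.87 and 5.27 CPM in treated rats, again without overlap, with a log2 fold change of 1.18 (SE 0.23) and an edgeR adjusted p of 0.0154.

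Ifit3, which binds foreign RNA together with its family members, and Cmpk2, a mitochondrial nucleotide kinase, were also up-regulated, with log2 fold changes of 1.12 (SE 0.31) and 1.35 (SE 0.36) and adjusted p-values of 0.0387 and 0.0380, and in both the groups overlapped. Isg15, a ubiquitin-like modifier, was at 8.10, 19.9, 10.1, 9.39 and 54.0 CPM in controls and 36.5, 20.8, 492, 51.4 and 40.2 CPM in treated rats. A single treated rat, replicate 3, exceeded all controls, and the log2 fold change of 2.66 (SE 0.72), called at an edgeR adjusted p of 0.0384, became 0.86 with an adjusted p of 0.329 without it. That rat was also highest for Ube2l6, the enzyme that attaches Isg15 to proteins, at 81.4 CPM against 31.0 to 35.2 CPM in the other treated rats, and for Psmb10, an immunoproteasome subunit, at 68.4 CPM against 30.8 to 35.1 CPM. Both were DEGs chosen after their values were seen, with log2 fold changes of 0.79 (SE 0.22) and 0.77 (SE 0.20).

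Trim25, the ubiquitin ligase that activates the RNA sensor RIG-I, was the list's down-regulated member, at 64.6, 58.5, 58.4, 54.3 and 63.0 CPM in controls and 28.2, 32.6, 39.0, 47.8 and 35.2 CPM in treated rats without overlap (log2 fold change -0.71, SE 0.20, edgeR adjusted p 0.0407). The first listed members Ifit1 and Ifit2 gave log2 fold changes of -0.76 (SE 2.73) and 0.03 (SE 0.25) and were not called. Of the list, 13 members were called without treated replicate 1 and 9 without control replicate 5, 5 without treated replicate 4, 2 without control replicate 1, 3 or 4 or treated replicate 5, and 1 without control replicate 2 or treated replicate 2 or 3, while 12 were called without 1500 mkd replicate 3. The list's medians at the other doses against the same 5 control rats were -0.23, -0.23, -0.12 and 0.11 for 300, 500, 750 and 1500 mkd in turn.

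The bases before the start of these genes were searched for TTTCNNTTTC, the core of the element that interferon-activated factors bind, on both strands in the 250 bases upstream of the start annotated by RefSeq in the GRCr8 assembly. Of the 7 DEGs of the list, 5 had an entry and 2 of them, Ifit3 and Isg20, held a match, against 3.41% of 33469 promoters of all genes. The 30 bases around each match are shown because these are members that rose at the same dose, with the motif, or its reverse complement, in capitals.
Ifit3, chr1:241527272-241527301 (+), motif 44 to 35 bases upstream: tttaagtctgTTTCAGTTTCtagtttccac
Isg20, chr1:142239957-142239986 (+), motif 92 to 83 bases upstream: taatgaaccaGAAACTGAAActaaaacggc
A match is a run of letters and not a measured site, and these coordinates are of a later assembly than the one to which the reads were aligned.

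Of the macrophage markers Gpnmb was up-regulated, as were other genes of immune cells that were among the most changed DEGs. Gpnmb, a lysosomal membrane glycoprotein of activated macrophages, stood at 26.8, 19.4, 11.3, 9.08 and 17.3 CPM in controls and 57.2, 72.6, 32.9, 55.5 and 45.8 CPM in treated rats. All treated rats were above all controls, with a log2 fold change of 1.66 (SE 0.44) and an edgeR adjusted p of 0.0374. Lgals3, the carbohydrate-binding protein galectin-3, rose from 17.8, 12.4, 10.3, 7.47 and 14.8 CPM to 35.6, 37.0, 27.7, 22.9 and 27.5 CPM, also without overlap (log2 fold change 1.26, SE 0.33, edgeR adjusted p 0.0356). Clec7a, the beta-glucan receptor dectin-1, and Ly6c, a surface protein of monocytes, had log2 fold changes of 1.44 (SE 0.40) and 1.51 (SE 0.44). Lgals3 and Clec7a also belong to lists assembled after the results were seen.

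Tyrobp and Fcer1g, signalling adapters of immune receptors, were among 7 up-regulated members of a list of 25 tested adapter and surface genes. The list was assembled after the results were seen, and 0.949% of all genes were up-regulated. Tyrobp was at 16.8, 16.7, 15.8, 8.14 and 13.1 CPM in controls and 32.1, 34.6, 25.1, 23.6 and 21.0 CPM in treated rats, and Fcer1g at 21.7, 24.1, 20.5, 10.6 and 18.9 CPM and 40.3, 44.5, 32.1, 35.0 and 27.0 CPM. Neither overlapped, and their log2 fold changes were 0.95 (SE 0.27) and 0.90 (SE 0.25). Lst1, Ptprcap, Slamf9 and Cd47, the ligand of the receptor SIRP alpha, made up the rest, at log2 fold changes of 0.84 (SE 0.23), 0.99 (SE 0.28), 1.18 (SE 0.32) and 0.79 (SE 0.22). None of the list was down-regulated. With 1 rat left out, 6 were called without treated replicate 1, 2 without treated replicate 4, 1 without control replicate 1, 3 or 5, and 0 without any 1 of the other 5 rats.

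The summed level of all 26 macrophage markers in the table was 501 to 1145 CPM in controls and 1051 to 1763 CPM in treated rats. Of 24 tested markers 1, Gpnmb, was up-regulated, where 0.949% of all genes were (2 were called without 1500 mkd replicate 3). Of the 24, 21 had a positive log2 fold change, with a median of 0.59, and the first listed, Cd68, Cd163 and Marco, gave 0.73 (SE 0.31), 0.65 (SE 0.37) and 0.42 (SE 0.63) without passing. The summed level of 27 T and NK cell markers was 28.0 to 52.5 CPM in controls and 54.8 to 88.9 CPM in treated rats. Of 19 tested, 3 were called, all up-regulated, where 0.949% of all genes were. With 1 rat left out, 1 macrophage marker was called without control replicate 1 or 5 or treated replicate 1, and 0 without any 1 of the others. No marker of either list was at 0 in all 10 rats. In bulk tissue more cells of a type and more RNA per cell cannot be told apart, and the part of these cells in the other changes was not tested.

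The called lymphoid markers were Gzma and Gzmm, proteases of cytotoxic granules, and Cd2, an adhesion receptor of T and NK cells. Gzma stood at 2.12, 2.03, 1.45, 1.28 and 1.86 CPM in controls and 4.66, 3.62, 4.29, 4.86 and 3.16 CPM in treated rats, and Gzmm at 0.904, 0.713, 1.02, 0.673 and 1.04 CPM and 2.64, 2.65, 2.01, 1.502 and 1.34 CPM, both without overlap. Their log2 fold changes were 1.24 (SE 0.33) and 1.22 (SE 0.36), and that of Cd2, below 1 CPM in every rat, was 1.57 (SE 0.44). Cd247 (1.16, SE 0.40) and Cd8a (-0.06, SE 0.25) were not called, Cd247 being called without 1500 mkd replicate 3. Of the list, 2 were called without treated replicate 1, 1 without control replicate 1 or 5, and 0 without any 1 of the other 7 rats, while 6 were called without 1500 mkd replicate 3.

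Markers of other cells gave no call in the edgeR fit of all 30 males. The edgeR fit of only the 10 rats compared called 2 stellate, 1 endothelial and 1 cholangiocyte marker and 0 of the others, and without 1500 mkd replicate 3 the fit called 1 stellate and 1 hepatocyte marker. Median log2 fold changes were 0.56 over 14 stellate cell markers, all 14 positive, 0.21 over 13 endothelial, 0.33 over 9 cholangiocyte, 0.62 over 5 B cell, 0.24 over 6 neutrophil, 0.05 over 7 erythroid and 0.02 over 18 hepatocyte markers. At an unadjusted p under 0.05, 5 stellate, 3 endothelial, 2 cholangiocyte, 0 B cell, 1 neutrophil and 0 erythroid markers were higher and 0 lower, and of the hepatocyte markers 1 was higher and 3 were lower, where 13.1% of all genes passed in each direction. DESeq2 called 1 stellate, 1 endothelial and 1 hepatocyte marker and 0 of the others. The summed stellate markers were 176 to 369 CPM in controls and 452 to 537 CPM in treated rats. The first listed were Acta2 0.73, Des 0.71 and Lrat 0.42 for stellate, Pecam1 0.46, Cdh5 0.46 and Kdr -0.05 for endothelial and Krt19 0.85, Epcam 0.86 and Sox9 0.15 for bile duct cells on the log2 scale. Those of B cells were Cd79b 0.70 and Cd22 -0.07, of neutrophils S100a8 0.16, S100a9 -0.02 and Csf3r -0.01, of erythroid cells Hbb 0.06, Hbb-b1 -0.18 and Alas2 -0.15, and of hepatocytes Alb -0.15, Ttr 0.21 and Tf -0.24.

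**Figure D2:**
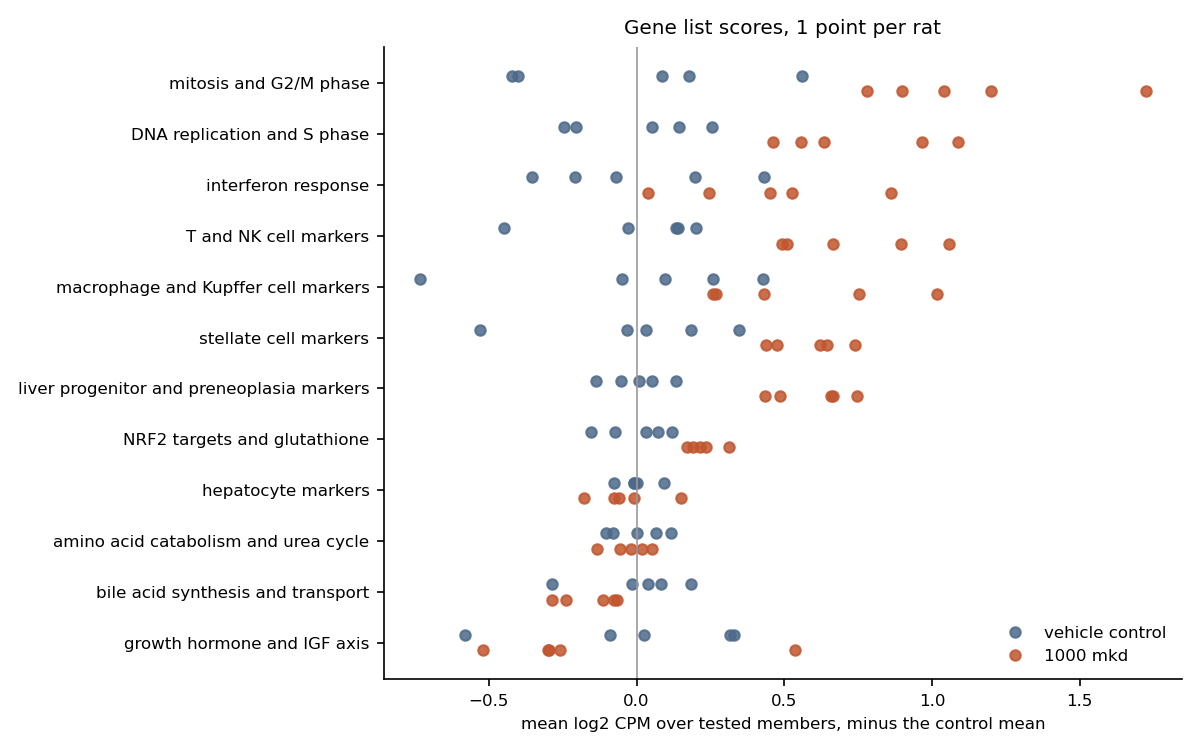
Score of 12 gene lists in each rat, as the mean log2 CPM over tested members minus the mean of the control rats (horizontal axis), for 5 control rats (blue) and 5 rats at 1000 mkd (orange). Scores for mitosis, S phase, T and NK cell, stellate, progenitor and NRF2 lists do not overlap between the groups. Those for interferon, macrophage, hepatocyte, amino acid catabolism, bile acid and growth hormone lists do.

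Genes of mitosis had positive log2 fold changes, and whether they were called depended on 1 rat of another dose group. Of 67 tested genes of mitosis and G2/M, all 67 had a positive log2 fold change and the median was 1.24, yet 0 were called by edgeR. At an unadjusted p under 0.05, 22 were higher (13.1% of all genes were), 31 had all treated above all control rats (4.59% of all genes), and DESeq2 called 4. Without 1500 mkd replicate 3 in the fit, 40 were called, all up, with a median of 1.19. Mki67 was at 9.43, 3.56, 4.68, 4.88 and 3.04 CPM in controls and 11.9, 20.5, 12.1, 10.2 and 10.1 CPM in treated rats. All treated values were above all controls, with control replicate 1 close to the lowest treated rats, and the log2 fold change was 1.34 (SE 0.69) with an edgeR adjusted p of 0.214. With 1500 mkd replicate 3 left out it was 1.29 (SE 0.35) with an edgeR adjusted p of 0.0208.

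Top2a, which untangles chromosomes, and Ccna2, cyclin A2, gave log2 fold changes of 1.16 (SE 0.78) and 1.40 (SE 0.75). In a fit of the 10 rats alone, without the other 20 males of the dose series, 40 mitosis genes and 13 replication genes were called. Those 20 include 1500 mkd replicate 3, and without it alone 15 replication genes were called. Of 44 tested genes of DNA replication, 0 were called by edgeR and 4 by DESeq2, and 41 were positive, with a median of 0.65. At an unadjusted p under 0.05, 23 were higher (13.1% of all genes were). The helicase subunits Mcm2, Mcm3 and Mcm4 gave 0.58 (SE 0.26), 1.15 (SE 0.46) and 0.48 (SE 0.33). Pkmyt1, a kinase that holds CDK1 inactive, was the cell cycle gene among the most changed DEGs, at 3.96, 2.33, 3.83, 3.57 and 2.56 CPM in controls and 5.12, 11.4, 9.57, 7.00 and 8.86 CPM in treated rats without overlap (log2 fold change 1.37, SE 0.37, edgeR adjusted p 0.0384).

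Some markers of liver progenitors and preneoplastic foci were up-regulated. Of 32 tested, 3 were up-regulated (0.949% of all genes were) and none down-regulated (1.81% of all genes). Of the 32, 28 were positive and the median log2 fold change was 0.69. Gstp1, the placental glutathione transferase that marks preneoplastic foci in rat liver, stood at 4.87, 4.13, 4.92, 3.23 and 4.42 CPM in controls and 7.22, 9.86, 7.23, 6.84 and 6.64 CPM in treated rats. The groups did not overlap, and the log2 fold change was 0.81 (SE 0.22) with an edgeR adjusted p of 0.0375. Anxa2, a membrane-binding annexin, and S100a6, a small calcium-binding protein, had log2 fold changes of 0.998 (SE 0.29) and 1.18 (SE 0.35). Ggt1 (0.98, SE 0.36) and Akr1b8 (0.16, SE 0.72) were not called, nor was Prom1 (0.83, SE 0.29), although all treated rats were above all controls for Prom1. No member was called without control replicate 2, 3 or 4 or treated replicate 2, 3 or 5, and 1 was called without control replicate 5, while 5 were called without 1500 mkd replicate 3.

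Other strongly up-regulated genes had unlike functions. Tspo, the translocator protein of the outer mitochondrial membrane, was at 2.99, 2.78, 5.08, 2.86 and 4.27 CPM in controls and 11.8, 17.1, 5.68, 6.25 and 14.1 CPM in treated rats without overlap (log2 fold change 1.61, SE 0.33, edgeR adjusted p 0.0212). Lama5, the laminin alpha 5 chain of basement membranes, was at 4.10, 2.14, 3.56, 2.99 and 3.04 CPM and 8.52, 18.8, 4.55, 7.16 and 8.30 CPM, with replicate 2 far above the other treated rats, and without that rat the log2 fold change was 1.13 against 1.58 with it. Nol3, a repressor of apoptosis, Neurl3, a ubiquitin ligase, Col11a2, a collagen chain, and Rem1, a small GTPase, gave log2 fold changes of 1.62 (SE 0.36), 1.53 (SE 0.32), 1.44 (SE 0.34) and 1.38 (SE 0.31).

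Some large fold changes came from 1 or 2 rats. Slc1a5, a neutral amino acid transporter, had the largest log2 fold change of the DEGs, 3.38 (SE 0.78), from 0.974, 0.638, 0.891, 0.706 and 1.23 CPM in controls and 1.64, 41.6, 1.02, 0.909 and 0.949 CPM in treated rats. Replicate 2 alone was high, and without it the log2 fold change was 0.31 with an adjusted p of 0.614. Sh3d21 stood at 38.4 and 49.0 CPM in treated replicates 3 and 5 against 1.93 to 4.03 CPM in the other treated rats. It was chosen after its values were seen.

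Among genes chosen after their values were seen, Id1, an inhibitor of differentiation, had a log2 fold change of 1.74 (SE 0.42), Krt8, a hepatocyte keratin, 0.96 (SE 0.21), Ly6e 0.96 (SE 0.26), Crip1 0.96 (SE 0.21), Il3ra, an interleukin 3 receptor chain, 1.04 (SE 0.20), and the glycolytic enzyme gene Gapdh 0.64 (SE 0.15), all called. Of 24 tested S100, annexin and galectin genes, a list assembled after the results were seen, 3 were up-regulated (0.949% of all genes were). None was down-regulated and the median was 0.43. With 1 rat left out, 4 were called without treated replicate 1, 3 without control replicate 5 and 2 without control replicate 1 or treated replicate 4. None was called without any 1 of the others. Of this list 6 were called, and Gapdh was not, without 1500 mkd replicate 3.

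Among the down-regulated genes were transcription regulators and receptors of the hepatocyte. Esr1, estrogen receptor alpha, was at 9.39, 14.6, 8.35, 9.55 and 8.87 CPM in controls and 4.49, 2.65, 2.24, 3.79 and 3.27 CPM in treated rats. Every treated rat was below every control, and the log2 fold change was -1.63 (SE 0.40) with an edgeR adjusted p of 0.0312. Rxra, the shared partner of many nuclear receptors, fell from 143, 148, 132, 139 and 109.7 CPM to 78.7, 44.2, 45.5, 59.2 and 47.3 CPM, also without overlap (log2 fold change -1.29, SE 0.29, edgeR adjusted p 0.0250). Ppara, the receptor that drives fatty acid oxidation, was at 49.1, 52.2, 29.1, 42.2 and 25.1 CPM in controls and 17.0, 16.1, 26.6, 18.7 and 14.0 CPM in treated rats, where replicate 3 overlapped the controls (log2 fold change -1.10, SE 0.26, edgeR adjusted p 0.0274).

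Of 33 tested nuclear receptors, a list assembled after the results were seen, 4 were down-regulated (1.81% of all genes were) and none up-regulated. Nr2c2 (-0.84, SE 0.18) was the fourth, and the list median was -0.10. Without treated replicate 1 the number of called receptors was 8, without 1500 mkd replicate 3 it was 7, without treated replicate 3 it was 1 and without control replicate 2 or treated replicate 2 or 5 it was 0. The coactivator Ncoa2 gave -0.88 (SE 0.24). The 4 nuclear factor I transcription factors, also a list assembled after the results were seen, all had negative log2 fold changes. Nfix, Nfia and Nfib were called down-regulated (1.81% of all genes were), but none of them without control replicate 2 or treated replicate 2, 3 or 5. Nfix was at 15.4, 15.5, 12.6, 13.2 and 14.3 CPM in controls and 7.30, 5.20, 3.79, 4.59 and 4.43 CPM in treated rats without overlap (log2 fold change -1.49, SE 0.37, edgeR adjusted p 0.0316), and Nfia and Nfib gave -0.93 (SE 0.26) and -0.91 (SE 0.23). Foxn3, a forkhead repressor, fell from 25.8, 30.9, 31.8, 26.1 and 28.7 CPM to 21.4, 8.35, 10.3, 9.45 and 8.19 CPM (log2 fold change -1.31, SE 0.29, edgeR adjusted p 0.0245), with treated replicate 1 nearest the controls. Prox1, a hepatocyte transcription factor, and Yap1, the Hippo pathway effector, both chosen after their values were seen, gave -0.82 (SE 0.22) and -0.94 (SE 0.26).

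Of 20 tested growth factor receptors, also assembled after the results were seen, 5 were down-regulated (1.81% of all genes were) and none up-regulated. Met, the hepatocyte growth factor receptor, was at 53.9, 62.6, 58.6, 49.9 and 45.4 CPM in controls and 42.2, 16.7, 15.5, 20.6 and 18.5 CPM in treated rats, without overlap but with treated replicate 1 close to the controls (log2 fold change -1.25, SE 0.31, edgeR adjusted p 0.0312). Insr, the insulin receptor, Egfr, the epidermal growth factor receptor, its relative Erbb3 and the orphan receptor kinase Ror1 gave log2 fold changes of -1.06 (SE 0.26), -0.93 (SE 0.21), -0.91 (SE 0.18) and -1.32 (SE 0.31). For Erbb3 the values were 109, 145, 109, 95.4 and 120.0 CPM in controls and 71.3, 58.8, 59.9, 54.4 and 62.2 CPM in treated rats, again without overlap. Without control replicate 2 or treated replicate 2 none was called, and 1 was called without treated replicate 3 or 5 and 3 without treated replicate 4. The list's median was 0.01.

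**Figure D3:**
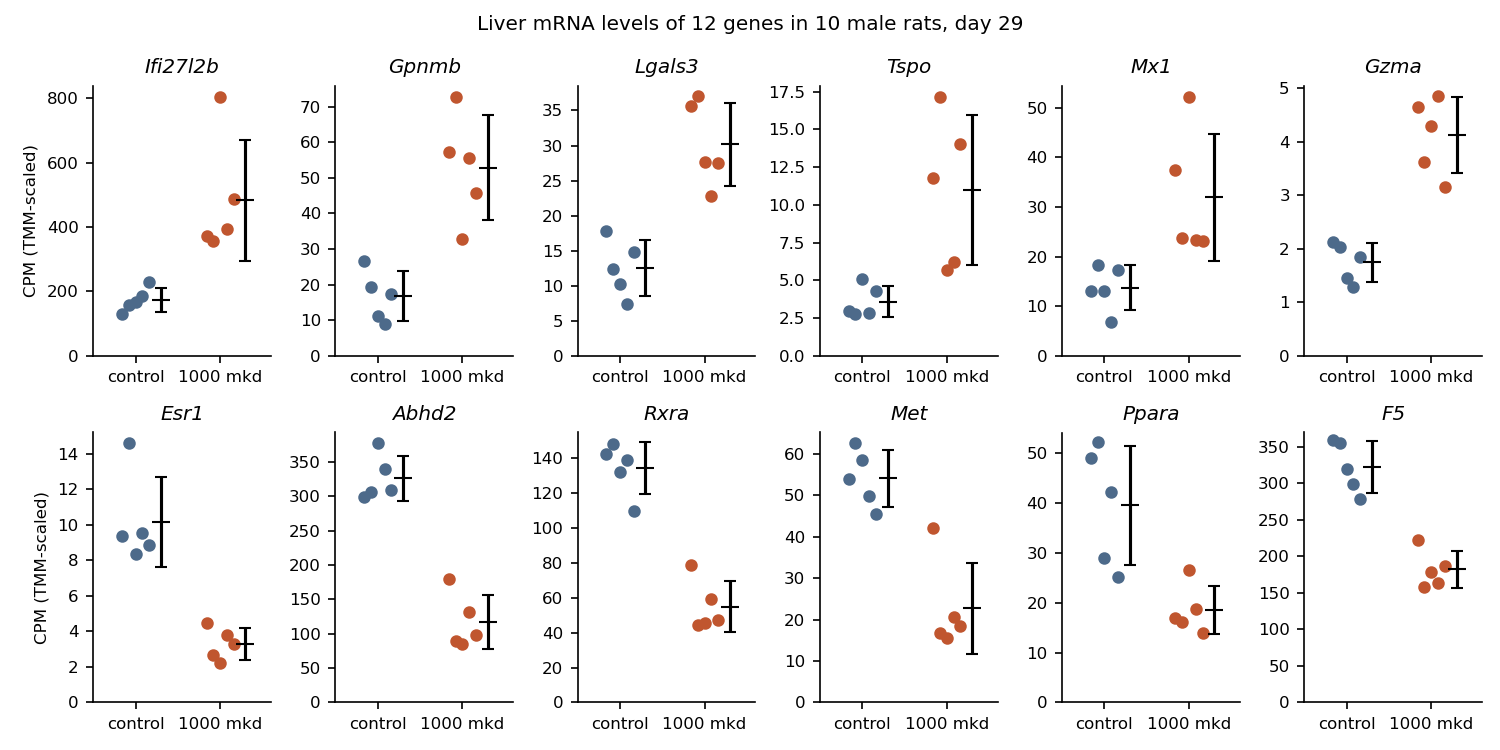
Levels in TMM-scaled CPM (vertical axes, each from 0) of 12 genes in 5 control rats (blue) and 5 rats at 1000 mkd (orange), replicates 1 to 5 from left to right, with the mean and SD in black. The groups do not overlap for 11 genes, and for Ppara 1 treated rat reaches the control range. For the genes named as most changed, the separation was a condition of the choice.

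The remaining down-regulated genes by size included Abhd2, a lipid hydrolase, at 299, 307, 378, 339 and 308 CPM in controls and 180.3, 89.1, 85.7, 132 and 98.2 CPM in treated rats (log2 fold change -1.48, SE 0.32, edgeR adjusted p 0.0245), without overlap. LOC501038, a gene without a settled name, Uhmk1, a kinase, Cmtm4, a membrane protein, Dab1, an adapter of reelin signalling, Xk, a membrane transport protein, and Slc39a9, a zinc transporter, had log2 fold changes of -1.69 (SE 0.42), -1.58 (SE 0.30), -1.47 (SE 0.36), -1.46 (SE 0.37), -1.44 (SE 0.31) and -1.39 (SE 0.33). In all of them every treated rat was below every control, which was a condition for naming them. Prkaa2, a catalytic subunit of AMP-activated kinase, chosen after its values were seen, gave -1.25 (SE 0.36).

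Some genes of the secretory pathway were down-regulated. Of 25 tested genes of the unfolded protein response, 3 were down-regulated (1.81% of all genes were), none was up-regulated, and the median was -0.11. Ern1, the stress sensor IRE1 alpha, was at 15.7, 23.0, 17.0, 20.9 and 20.3 CPM in controls and 12.1, 7.43, 8.18, 8.78 and 8.51 CPM in treated rats without overlap (log2 fold change -1.11, SE 0.20, edgeR adjusted p 0.0134). Atf6, a second stress sensor, and Sel1l, a part of the degradation machinery of the endoplasmic reticulum, gave -1.15 (SE 0.27) and -0.70 (SE 0.16). The chaperones Hspa5 and Hsp90b1 and the factor Xbp1 gave -0.08 (SE 0.16), -0.13 (SE 0.15) and 0.04 (SE 0.32) and were not called. Of this list 1 gene was called without control replicate 2 or treated replicate 3 or 5 and 0 without treated replicate 2. Of 23 tested COPII coat and cargo receptor genes, a list assembled after the results were seen, Sec24a, Sec23a, Lman1 and Lman2l were down-regulated (1.81% of all genes were). Their log2 fold changes were -1.02 (SE 0.22), -0.75 (SE 0.20), -0.86 (SE 0.23) and -0.99 (SE 0.29), and the list median was -0.18. Without control replicate 3 there were 2 calls in it, without control replicate 4 or treated replicate 4 there was 1, and without control replicate 2 or treated replicate 2, 3 or 5 there were 0.

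Lipid and bile acid genes showed few calls. Cyp8b1, which directs bile acid synthesis to cholic acid, was at 951, 1216, 1362, 1410.1 and 1247 CPM in controls and 748, 746, 568, 1004 and 587 CPM in treated rats, with 4 treated rats below all controls (log2 fold change -0.76, SE 0.23, edgeR adjusted p 0.0494). The transporters Slco1b2, which takes up bile acids and drugs, and Abcc2, which exports conjugates into bile, gave -0.77 (SE 0.21) and -0.69 (SE 0.20). With Cyp8b1, 3 of 25 tested bile acid genes were called, all down-regulated (1.81% of all genes were), with a list median of -0.19. Cyp7a1, the rate-limiting enzyme of bile acid synthesis (0.22, SE 0.59), and Cyp27a1 (0.05, SE 0.21) were not called. In this list 5 genes were called without treated replicate 1 or without 1500 mkd replicate 3, 1 without control replicate 4 or treated replicate 4 and 0 without control replicate 2 or 3 or treated replicate 2, 3 or 5.

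Acaca, acetyl-CoA carboxylase, was the down-regulated member (-0.74, SE 0.21) and Cidea, a lipid droplet protein, the up-regulated member (1.40, SE 0.39) of 36 tested fatty acid synthesis genes, where 2.76% of all genes were called. The median of this list was -0.21. Srebf1 (-0.87, SE 0.39) and Mlxipl (0.19, SE 0.24) were not called. Of 26 tested cholesterol genes 1 was down-regulated (1.81% of all genes were) and none up-regulated (list median -0.20), and Srebf2 and Hmgcs1 gave -0.32 (SE 0.17) and -0.66 (SE 0.46) and were not called. There were 2 calls among the cholesterol genes without 1500 mkd replicate 3. Of 53 PPAR alpha targets, Cidea rose and Ppara itself fell, where 2.76% of all genes were called in either direction. The list median was 0.02, and Acot1, an acyl-CoA thioesterase, and Acot2 gave 2.92 (SE 1.06) and 0.31 (SE 0.35). Acot1 stood at 0.765, 1.91, 2.11, 0.572 and 1.49 CPM in controls and 2.73, 15.7, 25.0, 1.34 and 6.93 CPM in treated rats, so that 4 treated rats were above all controls and the spread was wide, with an adjusted p of 0.0910, and Acot1 was called without 1500 mkd replicate 3.

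Genes of amino acid catabolism and the urea cycle gave 0 calls of 68 tested with edgeR and 1 with DESeq2, with a median of -0.03. At an unadjusted p under 0.05, 1 was higher and 5 were lower, where 13.1% of all genes passed in each direction. Without 1500 mkd replicate 3 edgeR called 1 of them and 4 of the xenobiotic genes described next. Cps1, Otc and Ass1 gave -0.49 (SE 0.21), -0.19 (SE 0.19) and 0.28 (SE 0.33). Xenobiotic P450s and conjugating enzymes gave 0 calls of 53 with edgeR and 2 with DESeq2, with 6 higher and 3 lower at an unadjusted p under 0.05, and the receptors Nr1i2, Nr1i3 and Ahr gave 0.39 (SE 0.29), 0.65 (SE 0.46) and -0.28 (SE 0.32). Cyp1a2, an aryl hydrocarbon receptor target, gave 0.46 (SE 0.35) and Cyp1a1 2.15 (SE 0.93), the latter at 0.522, 0.338, 0.462, 0.0336 and 0.334 CPM in controls and 0.462, 0.945, 2.67, 0.119 and 3.34 CPM in treated rats, high in treated replicates 3 and 5.

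Of 42 NRF2 targets and glutathione genes 2 were up-regulated, where 0.949% of all genes were. They were Gstp1 and Txn1, thioredoxin (0.60, SE 0.12), of which Txn1 was not called without 1500 mkd replicate 3. The median was 0.15, and Nfe2l2, Nqo1 and Hmox1 gave -0.32 (SE 0.25), 0.43 (SE 0.32) and 0.43 (SE 0.27). Of the antioxidant enzymes, Sod1, Sod2 and Gpx1 gave 0.29 (SE 0.16), 0.09 (SE 0.13) and 0.01 (SE 0.20). Of 23 heat shock genes Hspb1 and Cryab, both small heat shock proteins, were up-regulated (1.84, SE 0.51 and 1.06, SE 0.30), where 0.949% of all genes were. The median of this list was -0.02, and Hspa1a, Hspa1b and Hspa8 gave -0.06 (SE 0.54), 0.47 (SE 0.49) and -0.06 (SE 0.30). Hspb1 was at 18.3, 7.92, 19.5, 4.00 and 18.2 CPM in controls and 27.5, 98.9, 25.7, 19.2 and 72.1 CPM in treated rats, highest in replicates 2 and 5.

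Among sexually dimorphic genes, Cyp2c12, a P450 that is high in female and low in male rat liver, was up-regulated. It was at 21.8, 15.6, 68.5, 22.6 and 18.4 CPM in controls and 126, 150, 121, 89.0 and 33.3 CPM in treated rats, with 4 treated rats above all controls (log2 fold change 1.82, SE 0.46, edgeR adjusted p 0.0335), and reads may be shared with other Cyp2c genes. It was the 1 call among 17 tested female-biased genes (median -0.04), where 2.76% of all genes were called. In this list Cyp2c7 and A1bg gave -0.65 (SE 0.32) and 0.18 (SE 0.69). Cyp8b1 was the 1 call among 21 male-biased genes (median -0.16), in which Cyp2c11, Cyp2c13 and Cyp3a2 gave -0.20 (SE 0.46), -0.17 (SE 0.23) and -0.18 (SE 0.34). In the growth hormone and IGF list of 26 genes Insr alone was called, where 2.76% of all genes were. In this list Ghr, Jak2 and Stat5a gave -0.57 (SE 0.17), -0.08 (SE 0.15) and -0.08 (SE 0.20), Ghr with an edgeR adjusted p of 0.0476 but a fold change under 1.5. Without 1500 mkd replicate 3 the female-biased list gave 3 calls, the male-biased list 2 and the growth hormone list 4, Ghr and Cyp2c7 among the genes called.

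F5, coagulation factor V, was at 359, 355, 319.5, 299 and 279 CPM in controls and 223, 158, 179, 164 and 186 CPM in treated rats without overlap (log2 fold change -0.82, SE 0.15, edgeR adjusted p 0.0134). It was the 1 call among 50 complement and coagulation genes (median -0.04), where 2.76% of all genes were called. The C1q subunits C1qa, C1qb and C1qc, made by macrophages, gave 0.79 (SE 0.27), 0.76 (SE 0.27) and 0.78 (SE 0.28). Of 37 extracellular matrix genes Timp1, a protease inhibitor, rose (1.01, SE 0.25) and Fn1, plasma fibronectin, fell (-0.62, SE 0.15), where 2.76% of all genes were called. The median of this list was 0.45, and Col1a1, Col3a1 and Col4a1 gave 0.26 (SE 0.31), 0.49 (SE 0.30) and 0.32 (SE 0.27). In the transporter list of 41 genes Slc1a5 rose and Slco1b2 fell (median -0.08, beside the same 2.76% of all genes called), and Slc1a2 and Slc1a4 gave 0.61 (SE 0.28) and -0.32 (SE 0.46). The matrix list gave 4 calls and the transporter list 7 without 1500 mkd replicate 3. Slco1b2 was also the 1 call among 28 pericentral genes (median 0.14, beside 2.76% of all genes called), in which Glul, Axin2 and Lgr5 gave -0.28 (SE 0.17), -0.22 (SE 0.29) and 0.45 (SE 0.61).

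The remaining lists held no call in the edgeR fit of all 30 males. Of all genes 13.1% passed an unadjusted p under 0.05 upward and 13.1% downward. Counts at an unadjusted p under 0.05 were 0 up and 2 down of 30 periportal genes (median -0.01, Asl 0.16, SE 0.32), 3 up and 5 down of 38 genes of glucose metabolism (median -0.12, Gckr -0.51, SE 0.33, Hk1 0.50, SE 0.24) and 4 up and 3 down of 39 acute-phase genes (median -0.01, Orm1 0.77, SE 0.25, Hp 0.43, SE 0.17, Hpx 0.20, SE 0.17). They were 3 up and 3 down of 23 p53 targets (median 0.22, Cdkn1a 0.80, SE 0.50, Mdm2 0.45, SE 0.15, Ccng1 0.24, SE 0.15) and 8 up and 2 down of 37 apoptosis genes (median 0.13, Bcl2l1 -0.10, SE 0.16, Mcl1 0.13, SE 0.17, Bcl2a1 0.88, SE 0.35). For serine synthesis and ATF4 they were 1 up and 6 down of 31 (median -0.21, Phgdh -0.41, SE 0.58, Psat1 -0.24, SE 0.46, Psph 0.04, SE 0.18).

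For immediate early genes the counts, beside the same 13.1% of all genes each way, were 1 up and 1 down of 34 (median 0.28, Fos -1.32, SE 1.13, Fosb -3.19, SE 1.31, Fosl2 0.54, SE 0.43). For clock genes they were 0 up and 1 down of 15 (median 0.15, Arntl -0.92, SE 0.92, Clock -0.59, SE 0.27, Npas2 -1.01, SE 0.89). DESeq2 called 1 glucose metabolism, 2 acute-phase, 1 p53, 1 apoptosis and 2 ATF4 genes and 0 periportal, immediate early or clock genes. Without 1500 mkd replicate 3 edgeR called 1 acute-phase, 1 p53, 1 apoptosis and 2 ATF4 genes and 0 in the rest of these lists. Arntl, a core clock gene, was at 35.3 CPM in treated replicate 1 against 2.64 to 8.93 CPM in the other treated rats. Further genes that were looked up gave no call, with log2 fold changes of 0.42 (SE 0.84) for Hebp2, -0.47 (SE 0.29) for Cyp17a1, -1.52 (SE 0.47) for Slc7a1, 1.39 (SE 0.77) for Cenpw, 0.65 (SE 0.34) for Chek2, 0.78 (SE 0.69) for Parpbp, 0.51 (SE 0.27) for Rnd1, 0.86 (SE 0.28) for Tes, -0.32 (SE 0.41) for Car3 and 0.71 (SE 0.27) for S100a10. Of these, Slc7a1, Chek2, Tes and S100a10 were called without 1500 mkd replicate 3.

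The direction of change went with the length of the gene. Genomic span, from the first to the last base of a gene, was taken from RefSeq for GRCr8, a later assembly than that of the reads, for 98.5% of the genes tested and 99.4% of the DEGs. Up-regulated DEGs had a median span of 10.2 kb and down-regulated DEGs 65.5 kb, against 23.2 kb over all genes tested. From the shortest to the longest of 5 equal bins of genes the median log2 fold change was 0.19, 0.11, 0.05, -0.05 and -0.13, with 47, 24, 16, 13 and 6 up-regulated and 6, 13, 30, 53 and 101 down-regulated DEGs. The down-regulated genes named above include long ones such as Esr1, at 393 kb, Met at 107 kb and Insr at 138 kb, whereas Ifi27l2b spans 1.49 kb. Against the same control rats the medians of the shortest and longest bins were 0.06 and -0.09 at 300 mkd, 0.12 and -0.07 at 500 mkd, 0.21 and -0.14 at 750 mkd and 0.19 and -0.09 at 1500 mkd. They were 0.04 and -0.05 in males on day 8 and -0.03 and 0.01 in females on day 29, both at 1000 mkd.

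The same measure differed between rats of the same group. The median deviation of the bin of longest genes minus that of the bin of shortest, on the log2 scale, ran from 0.04 to 0.31 in control rats and from -0.31 to -0.11 in 4 treated rats, while treated replicate 1 stood at 0.30, inside the control range. With each rat's deviation by span removed, an alternative added after seeing the data, 243 genes were called, 76 up and 167 down, of which 210 were among the 311. The cause of this pattern was not tested.

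**Figure D4:**
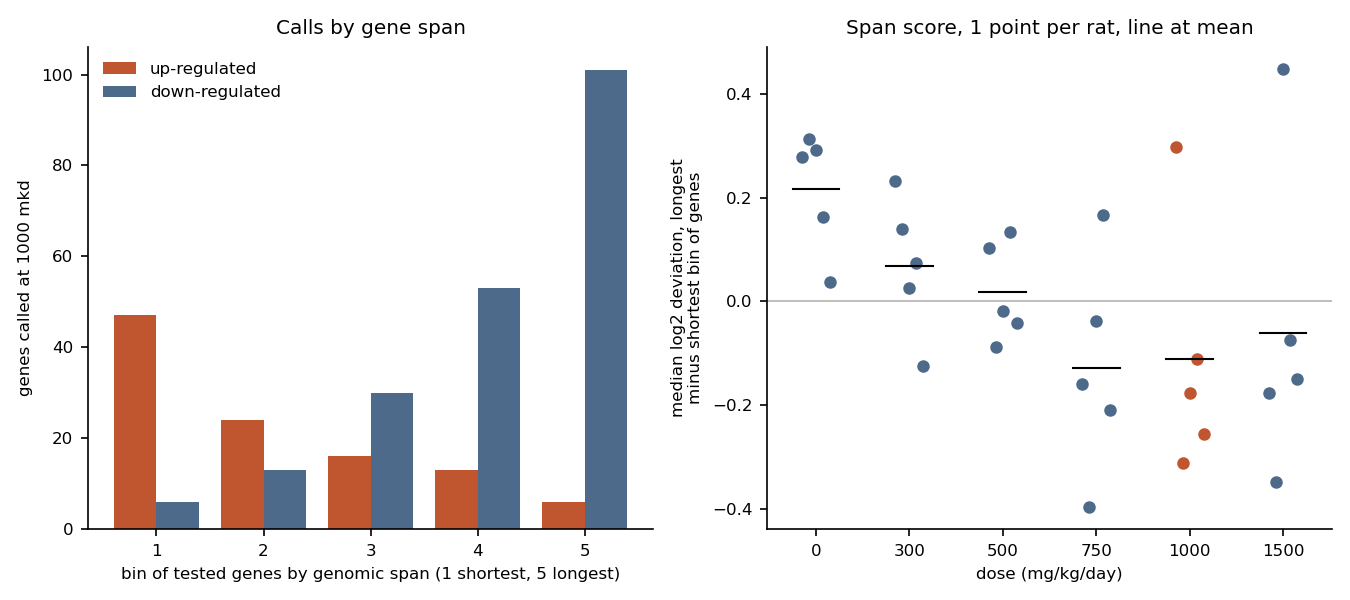
Left, up-regulated (orange) and down-regulated (blue) genes at 1000 mkd (vertical axis, number of genes) in 5 equal bins of the tested genes by genomic span, shortest to longest. Right, the span score of each rat (vertical axis, log2 units) by dose in mg/kg/day, with a line at the group mean and the 1000 mkd rats in orange. Treated replicate 1 sits at 0.30 and the other 4 rats at 1000 mkd lie below all 5 controls.

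The other doses were measured in 5 male rats each on the same day and share the 5 control rats, so their folds are not independent of those above. By the same edgeR test the 300 and 500 mkd groups each gave 0 calls, with 638 and 1542 genes at an unadjusted p under 0.05, and the 750 and 1500 mkd groups gave 88 and 554 calls. Of the 554, 356 were up and 198 down, and without 1500 mkd replicate 3 there were 687, 127 up and 560 down. For Esr1 the log2 fold changes at 300, 500, 750, 1000 and 1500 mkd were -0.04, -0.95, -0.93, -1.63 and -1.29, for Rxra -0.32, -1.0, -1.27, -1.29 and -1.41 and for Abhd2 -0.45, -1.40, -1.43, -1.48 and -1.67. For Gpnmb they were 0.38, 0.63, 0.71, 1.66 and 1.502, for Lgals3 0.11, 0.51, 0.59, 1.26 and 1.08 and for Ifi27l2b 0.42, 0.30, 0.67, 1.47 and 0.70.

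**Figure D5:**
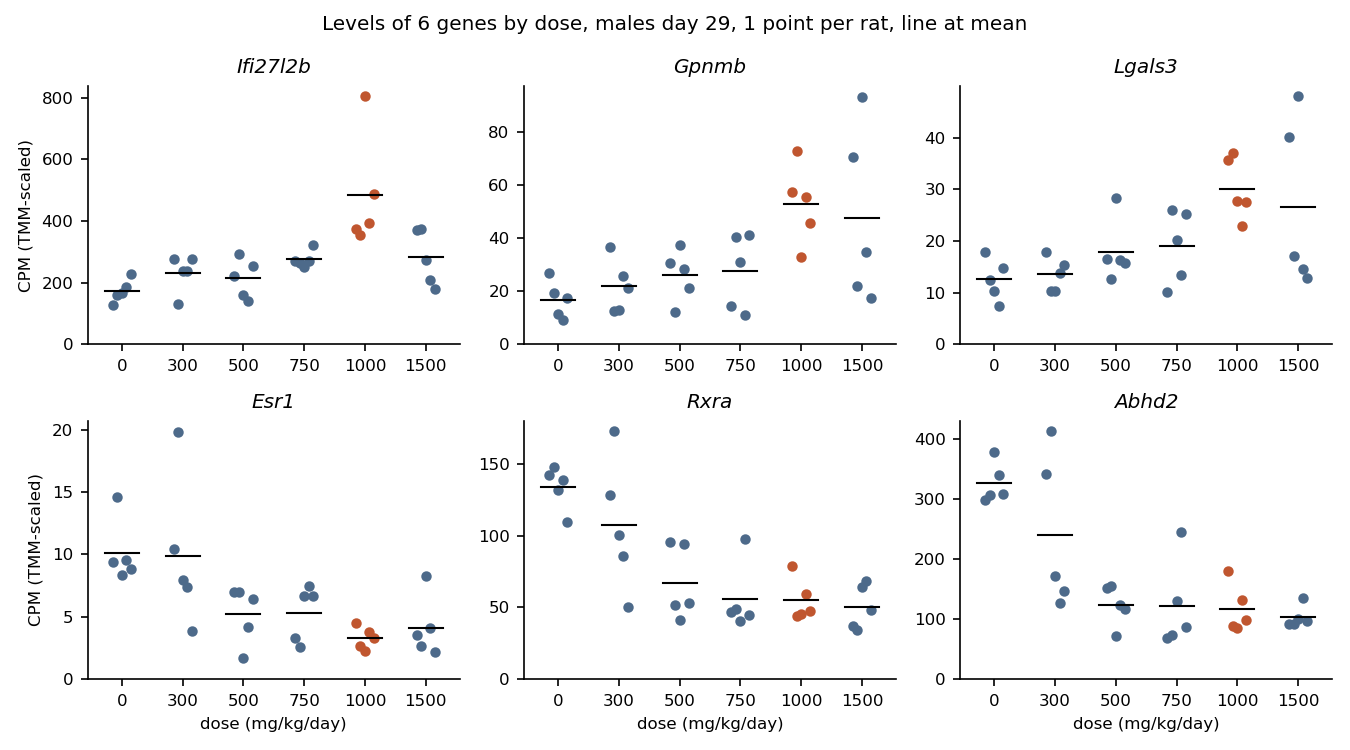
Levels in TMM-scaled CPM (vertical axes, from 0) of 6 genes in male rats on day 29 by dose in mg/kg/day, 5 rats per dose, 1 point per rat with a line at the group mean and 1000 mkd in orange. All 5 rats at 1000 mkd lie above the controls for Ifi27l2b, Gpnmb and Lgals3 and below them for Esr1, Rxra and Abhd2.

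Compared directly, 1500 and 1000 mkd differed in 0 of 11279 genes by edgeR (0%), with 462 at an unadjusted p under 0.05, and DESeq2 called 1, Ifit1. The direct comparison uses no control rat. The median of the mitosis list was 1.24 at 1000 mkd and 3.26 at 1500 mkd against the shared controls, and Mki67 differed between the doses by a log2 fold change of 2.13 (SE 0.69). Both values rest on 1500 mkd replicate 3, the rat at 243 CPM for Mki67. Without it the mitosis median at 1500 mkd was 0.79, the Mki67 difference was -0.39 (SE 0.37), and 0 genes were called between the doses by edgeR. Ifi27l2b differed by -0.78 (SE 0.24).

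The response to 1000 mkd on day 29 was set against that of males on day 8, after 7 days of dosing (5 control and 5 treated rats), as an interaction. By edgeR 0 of 11464 genes passed (0%), 1414 had an unadjusted p under 0.05, 0 were called without 1500 mkd replicate 3, and DESeq2 called 1, Park2, chosen after its value was seen. On day 8 itself 0 genes were called at 1000 mkd and 461 had an unadjusted p under 0.05, in a fit shared with the day 29 males, 1500 mkd replicate 3 among them. The log2 fold changes on day 8 were 1.08 for Ifi27l2b, 0.91 for Gpnmb, -0.39 for Esr1, -0.26 for Rxra and -0.34 for Abhd2. The differences between the days were -1.28 (SE 0.55) for Esr1, -1.06 (SE 0.36) for Rxra and -1.17 (SE 0.42) for Abhd2, and none passed.

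Set against females on day 29 at the same dose (5 control and 5 treated rats), 0 of 11621 genes passed as an interaction by edgeR (0%), 1379 had an unadjusted p under 0.05, and DESeq2 called 1, Cyp2c12. In females 103 genes were called at 1000 mkd. Cyp2c12 gave -0.84 in females and differed between the sexes by 2.64 (SE 0.56), and it was called by edgeR as well without male control replicate 3 or without male treated replicate 5. Gpnmb gave 1.72 in females and Lgals3 0.88, while Esr1 gave -0.05 and Rxra -0.51. The differences between the sexes were -0.08 (SE 0.59) for Gpnmb, -1.61 (SE 0.54) for Esr1 and -0.80 (SE 0.45) for Rxra, and none of the 3 passed.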

How the data were processed

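RNA of 30 male rats killed on day 29 (6 dose groups of 5) entered 1 fit, from which the 10 rats of the control and 1000 mkd groups were compared. Per the study's methods, libraries were made with a stranded mRNA kit and sequenced as single reads, trimmed with Trimmomatic, aligned to the rat genome Rn6 with Bowtie2 and counted per gene with HTSeq by the authors, whose deposited counts are raw and unnormalized. Versions and the strand setting of the counting are not given in the sources used here, so reads of overlapping genes on opposite strands, and of near-identical gene copies, may be shared. Lines for reads on no gene were left out. The table held 17337 genes, of which 11279 passed edgeR's filterByExpr.

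Counts were scaled by TMM (factors 0.936 to 1.13) and tested with edgeR 4.0.16 in R 4.3.3 by the quasi-likelihood test, with p-values adjusted by Benjamini-Hochberg over all genes tested. A gene was called at an adjusted p of at most 0.05 and a fold change of at least 1.5. SE is that of the log2 fold change, derived from the F statistic. List scores are means of log2 CPM with a prior count of 2. Day 8 males and day 29 females entered fits of their own dose series with the day 29 males, as interactions. Alternatives were a replicate block, DESeq2 1.42.0, its size factors in edgeR, a stricter filter of at least 10 counts per rat, no filter, a fit of only the groups compared, each rat left out and, added after seeing the data, a correction for gene span by lowess (span 0.3) and a fit without male replicate 3 at 1500 mkd. The test was also run on simulated counts with known changes.

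Genes were named by rule: the 12 most changed called genes each way with a mean of at least 1 CPM and no overlap between groups, every called member and the first 3 tested members of 37 lists, and genes the study names. Some genes that this rule names are not reported here. Another 6 lists, and genes said to be so, were chosen after values were seen, so the counts of calls in those lists are no test of them. Members and lists were chosen with earlier results of these data known. Every sample column of the 4 tables read was mapped to a rat by its title. The table of an earlier experiment was not used here.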

Additional observations from a re-analysis of the deposited data

Results flagged for a closer look

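Single rats stood apart from the other 4 of their group in 52 of 472 groups of 5 values checked (Dixon's test at the 95% level, by which chance marks about 1 group in 20), for genes named in the report and for list scores in mean log2 CPM. Treated replicate 1 stood apart as the highest of its group for Arntl at 35.3 CPM, Atf6 at 32.6 CPM, Bcl2a1 at 11.8 CPM, Clock at 77.8 CPM, Ern1 at 12.1 CPM, Fos at 9.57 CPM, Fosl2 at 5.54 CPM, Foxn3 at 21.4 CPM, Insr at 36.0 CPM, Jak2 at 22.2 CPM, Kdr at 40.9 CPM, Lman1 at 54.8 CPM, Met at 42.2 CPM, Prkaa2 at 36.2 CPM, Slc1a4 at 13.9 CPM, Slco1b2 at 761 CPM, Xk at 4.20 CPM and the growth hormone and IGF axis score at 4.92. Treated replicate 2 stood apart as the highest of its group for Gstp1 at 9.86 CPM, Lama5 at 18.8 CPM, Mki67 at 20.5 CPM, Slc1a5 at 41.6 CPM and Stat5a at 11.1 CPM. Treated replicate 2 stood apart as the lowest of its group for Cyp2c11 at 531 CPM. Treated replicate 3 stood apart as the highest of its group for Isg15 at 492 CPM, Psat1 at 3.66 CPM, Psmb10 at 68.4 CPM and Ube2l6 at 81.4 CPM. Treated replicate 4 stood apart as the highest of its group for Alas2 at 8.78 CPM, Car3 at 1590.0 CPM and Hbb at 228 CPM. Treated replicate 4 stood apart as the lowest of its group for the PPARalpha targets and fatty acid oxidation score at 7.05. Control replicate 1 stood apart as the highest of its group for Hp at 17993 CPM, Mki67 at 9.43 CPM and Nqo1 at 7.17 CPM. Control replicate 1 stood apart as the lowest of its group for the p53 targets score at 4.00. Control replicate 2 stood apart as the highest of its group for Esr1 at 14.6 CPM, Fos at 29.6 CPM and Fosb at 14.1 CPM. Control replicate 3 stood apart as the highest of its group for Cyp2c12 at 68.5 CPM, Krt19 at 2.64 CPM, Ror1 at 14.0 CPM and Sh3d21 at 3.53 CPM. Control replicate 4 stood apart as the highest of its group for Hebp2 at 2.56 CPM and Ttr at 14693 CPM. Control replicate 4 stood apart as the lowest of its group for Kdr at 18.4 CPM. Control replicate 5 stood apart as the highest of its group for Isg15 at 54.0 CPM, Phgdh at 11.7 CPM, Psat1 at 5.05 CPM and Slc7a1 at 7.42 CPM. Control replicate 5 stood apart as the lowest of its group for Nfib at 9.24 CPM and Yap1 at 11.9 CPM. The genes for which treated replicate 1 was the highest include down-regulated genes such as Met, Insr and Atf6, and treated replicate 1 was also the rat whose span score lay inside the control range. What sets these rats apart was not tested.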

How the results depend on the processing

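The count of called genes at 1000 mkd was 311 and came to 641 with DESeq2 and 790 with only the groups compared, and to 778 without 1500 mkd replicate 3 in the shared fit, against 243 to 366 with the filters, size factors and span correction, and with each rat left out it ran from 1 to 860. Without the filter, 78 were up and 281 down. The dose comparison gave 1 call with DESeq2, as did both interactions, and 0 under every other alternative run, save that the interaction with sex ran from 0 to 1 with each rat left out. What lies behind these differences was not tested, and a fit with a rat left out also holds 1 rat fewer. Over 198 named genes and their alternatives, 2952 of 3534 values kept their side of the threshold, 536 lost the call and 46 gained it. Direction was compared only where a gene was called in the main fit or the alternative, and there 0 reversed. Of 774 list medians 8 moved by more than 1 SD between rats, and of 774 counts of called list members 320 moved by more than 1.5 times. Replicate numbers were not taken to pair the rats: the deviations of same-numbered rats correlated between -0.17 and 0.30 and 2 of 5 treated rats correlated best with the control of their own number, and with a replicate block 449 genes were called and 0 in each of the other 3 comparisons. Errors were wide for some genes, so a missed call for them is not a sign of no change.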
